A study of Rattus norvegicus with 8 samples.

Results

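The 9 genes Dcx, Mapt, Tubb3, Stmn2, Nefl, Ina, Map2, Map1s and Map9 encode proteins of microtubules and intermediate filaments, 2 of the fibre systems that shape nerve cells. They were chosen by name, and all 9 are among the 1187 genes that the authors listed as different between glia rich and poor in lipid droplets, the organelles that store neutral lipid. Since the choice was made with the authors' calls known, the fact that all 9 were called lower is a description and not a test. The glia came from hippocampi of newborn rats (postnatal day 0) and were kept in medium with 10% serum for 3 to 5 days, stained with Nile red, a dye of neutral lipid, and sorted by fluorescence. RNA was sequenced from 4 samples with many droplets (LD-high) and 4 samples with few (LD-low). All samples come from the same kind of culture, and the labels name no genotype, no drug and no sort other than the stain.

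Microtubules are hollow fibres of tubulin. In neurons they fill axons and dendrites, where tubulin of a neuronal type, binding proteins such as tau and doublecortin and destabilising proteins such as the stathmins set how stable they are. Neurofilaments and alpha-internexin are intermediate filaments of axons, and astrocytes build the same kind of fibre from other proteins, GFAP and vimentin. For the comparison below, Dcx, Mapt, Tubb3, Stmn2, Nefl and Ina were taken as the 6 neuronal genes. Map2, Map1s and Map9 were taken as 3 genes also made by glia or by cells in general. The border is not sharp, since oligodendrocytes also make tau and some dividing cells make the neuronal tubulin.

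The rat promoters available here from RefSeq (build GRCr8) match 6 of the 9 genes: Dcx, Tubb3, Ina, Map2, Map1s and Map9. Each runs from 250 bases before to 50 bases after 1 annotated start and is written 5′ to 3′ along the gene. Those of the neuronal genes Dcx, Tubb3 and Ina are shown because these genes fell most among the matched ones, and that of Map9 because it fell least. Capitals mark matches to 6 motifs, searched on both strands. The general E-box was spelled CANNTG. Among its forms those bound by proneural factors were searched on their own, first as CAGATG and then in the second form as CAGCTG, and each match to either is also a match to the general one. The TATA motif was spelled TATAAA. The site of REST, a repressor of neuronal genes in other cells, was searched in its left stretch as CAGCACC and in its right stretch as GGACAGC.
Dcx, chrX:112304112-112304411, minus strand: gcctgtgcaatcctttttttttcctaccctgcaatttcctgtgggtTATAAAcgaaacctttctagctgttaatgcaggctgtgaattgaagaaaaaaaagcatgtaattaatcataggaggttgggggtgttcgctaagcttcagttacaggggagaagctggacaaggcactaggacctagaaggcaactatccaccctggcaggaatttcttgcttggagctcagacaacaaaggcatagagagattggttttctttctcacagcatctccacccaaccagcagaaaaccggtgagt
Tubb3, chr19:68365437-68365736, plus strand: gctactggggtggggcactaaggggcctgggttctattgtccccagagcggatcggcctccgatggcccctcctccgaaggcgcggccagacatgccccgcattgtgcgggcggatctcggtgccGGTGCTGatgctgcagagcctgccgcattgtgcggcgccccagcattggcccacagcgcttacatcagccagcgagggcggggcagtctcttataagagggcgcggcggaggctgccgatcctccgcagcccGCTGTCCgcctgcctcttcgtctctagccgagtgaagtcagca
Ina, chr1:255837879-255838178, plus strand: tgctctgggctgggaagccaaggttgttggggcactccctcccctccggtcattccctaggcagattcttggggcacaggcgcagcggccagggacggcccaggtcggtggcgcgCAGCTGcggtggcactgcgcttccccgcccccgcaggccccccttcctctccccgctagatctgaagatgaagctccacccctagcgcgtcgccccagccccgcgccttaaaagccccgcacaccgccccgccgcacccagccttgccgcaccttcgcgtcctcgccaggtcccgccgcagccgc
Map9, chr2:170006497-170006796, plus strand: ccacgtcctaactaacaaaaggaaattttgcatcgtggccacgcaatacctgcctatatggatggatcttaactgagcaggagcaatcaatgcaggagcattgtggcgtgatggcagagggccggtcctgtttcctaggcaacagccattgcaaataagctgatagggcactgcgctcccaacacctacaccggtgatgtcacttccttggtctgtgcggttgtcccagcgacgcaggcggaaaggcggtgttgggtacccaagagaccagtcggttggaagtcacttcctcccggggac

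These windows differ in base composition. Their GC content is 45.0% in Dcx, 67.3% in Tubb3, 71.7% in Ina and 54.7% in Map9, beside a median of 51.7% over 33469 promoters of this length. The pair CG occurs 3 times in the Dcx window, 26 times in Tubb3, 28 times in Ina and 14 times in Map9. Dcx holds TATAAA at position -204 from the start, a motif found in 14.2% of all the promoters. Ina holds CAGCTG at position -135, a motif of 15.1% of the promoters. Tubb3 holds CAGCACC at position -125 and GGACAGC at position 8, both as the reverse complement. These motifs occur in 6.78% and 6.59% of the promoters. In a REST site read as the reverse complement, the right stretch, GGACAGC, would lie upstream of the left stretch, CAGCACC. In Tubb3 the left stretch lies upstream and far from the right one, so together they do not make up a REST site. The Map9 and Map1s windows hold none of the 6 motifs. The Map2 window holds 1 CANNTG, a motif of 72.1% of the promoters, but Map2 has 51 RefSeq transcripts and the window belongs to 1 of its starts. No motif is shared by the 3 neuronal windows.

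The deposited tables give 1 level per gene and group. Their headers name no unit, and the levels are read as FPKM, the unit of Cuffdiff, which divides fragments by transcript length and by sequencing depth. Levels of single samples were not used here, so no level carries an SD, groups cannot be checked for overlap sample by sample and no sequencing depth is known. The only measure of error is the authors' own q-value, their p-value adjusted over the genes they tested. Its smallest listed value, 0.00187, is shared by 348 called genes. Genes with this q therefore cannot be ranked by it. Levels of different genes are set side by side below because FPKM is per length. Reads shared between similar or overlapping genes could still shift such comparisons. The authors called 548 genes lower in LD-high glia, 4.22% of the 12981 genes tested, at q below 0.05. Among the 528 of them above 0 in both groups the median log2 change, LD-high over LD-low, was -1.40. The other 20 were listed at 0 in LD-high glia, so they have no log2 change. They are left out of the ranks by size of change below, though their fall was the most complete. The labels do not say whether the samples came from separate animals or cultures, so the spread behind q may be technical.

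The neuronal genes fell further than the genes also made by glia. Dcx, Ina, Mapt, Tubb3 and Nefl had between 3.39% and 5.55% of their LD-low level in LD-high glia, while Map2, Map1s and Map9 had between 36.3% and 53.5%. Stmn2 stood between these sets with 25.1%. The median log2 change was -4.41 over the 6 neuronal genes and -0.996 over the other 3, a difference of -3.41. The sets as drawn here did not overlap. With Mapt (-4.48) and Tubb3 (-4.33) counted as also made by glia they do overlap, since Stmn2 had -1.99. Genes are not replicates and these were chosen with their changes known, so no test was made of this difference. In a sorted bulk sample, fewer cells of a type and less RNA per cell cannot be told apart.

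**Figure D1:**
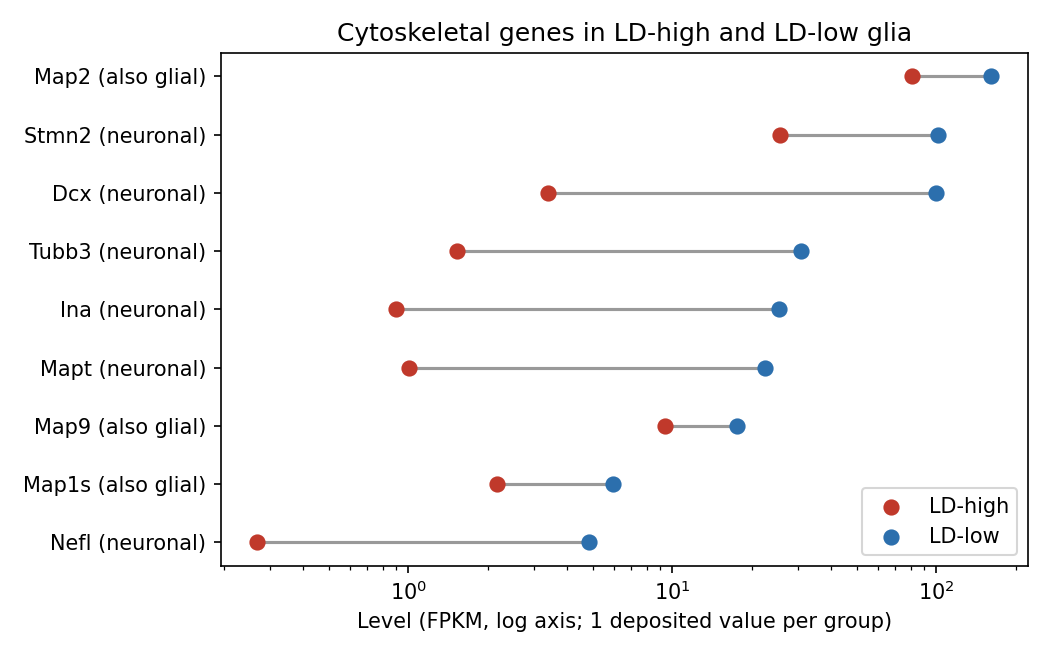
Levels of the 9 genes on a log axis of FPKM, with LD-high glia in red and LD-low glia in blue, 1 deposited value per group and no error bars because no values per sample were used. The red point lies left of the blue one for every gene, with the longest gap for Dcx (3.39 against 99.7 FPKM) and the shortest for Map9 (9.42 against 17.6 FPKM).

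Dcx encodes doublecortin, which binds and bundles microtubules in migrating young neurons. Its level was 3.39 FPKM in LD-high glia and 99.7 FPKM in LD-low glia. The log2 change was -4.88, and 3 of the 528 lower genes above 0 in both groups changed more. The authors' deposited table gives it q = 0.00187. The gene (ENSRNOG00000047712) lies on chromosome X, 115098675 to 115175299, in rn6, the build of the deposited table.

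Mapt encodes tau, which stabilises the microtubules of axons. Its level was 1.01 FPKM in LD-high glia and 22.6 FPKM in LD-low glia. The log2 change was -4.48 (q = 0.00187 in the authors' deposited table). Mapt (ENSRNOG00000005133) lies on chromosome 10, 92288910 to 92386517, in rn6. In GRCr8 it overlaps 3 RefSeq genes that have only provisional names, and whether strand was used in counting is not given in the sources used here. Tau is also a protein of oligodendrocytes, so the markers of that lineage are set beside it. Of 14 markers 2 were called (14.3%), Pdgfra and Bcas1, both lower, beside 4.22% of all tested genes called lower. The summed level of these 2 called markers was 4.39 FPKM in LD-high glia and 25.9 FPKM in LD-low glia, a direction that follows from the calls. Myelin and lineage genes such as Mbp, Olig2 and Sox10 were not among the called genes. The part of that lineage in the change of Mapt was not tested.

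Tubb3 encodes beta-III tubulin, the tubulin by which neurons are usually stained. Its level was 1.54 FPKM in LD-high glia and 30.9 FPKM in LD-low glia. The log2 change was -4.33 (q = 0.00187 in the authors' deposited table). Tubb3 (ENSRNOG00000017209) lies on chromosome 19, 56220755 to 56229813, in rn6. Beta tubulins are a family of closely similar genes, and the authors' counting could split reads between them.

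Stmn2 encodes stathmin 2 (SCG10), a protein of growth cones that takes up tubulin and loosens microtubules. Its level was 25.6 FPKM in LD-high glia and 101.9 FPKM in LD-low glia. The log2 change was -1.99 (q = 0.00187 in the authors' deposited table). Stmn2 (ENSRNOG00000011705) lies on chromosome 2, 95424251 to 95472115, in rn6. Stmn2 and Dcx had nearly the same level in LD-low glia, but in LD-high glia the level of Dcx was 0.132 times that of Stmn2, against 0.979 times in LD-low glia. By size of change Stmn2 ranked 143 among the 528 lower genes, while the other 5 neuronal genes ranked from 4 to 20. With 1 FPKM added to both levels, Stmn2 (log2 change -1.95) stood close to Nefl (-2.20), and the other 4 lay from -4.52 to -3.55.

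Both neuronal filament genes of the 9 fell. Ina, which encodes alpha-internexin, a filament protein that appears early in neurons, had 0.895 FPKM in LD-high glia and 25.4 FPKM in LD-low glia. Its log2 change was -4.82 (q = 0.00187 in the authors' deposited table). Nefl, the neurofilament light chain on which the other neurofilament proteins assemble, had 0.268 FPKM in LD-high glia and 4.83 FPKM in LD-low glia. Its log2 change was -4.17 (q = 0.00556 in the authors' deposited table). Nefl had the lowest level of the 9 genes in both groups, so its fold rests on little signal in LD-high glia. With 1 FPKM added to both levels, a pseudocount that damps the change of low genes, the log2 change was -2.20 for Nefl, -3.80 for Ina and -4.52 for Dcx. Nefl (ENSRNOG00000013658) lies on chromosome 15, 44799334 to 44804574, in rn6, and its neighbour in GRCr8 is Nefm, the medium neurofilament chain, which was not among the called genes. Ina (ENSRNOG00000020248) lies on chromosome 1, 266659519 to 266794431, in rn6. That locus spans 135 kb, and in GRCr8 Ina overlaps Nt5c2, so reads of a neighbour could enter its level.

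Of the genes also made by glia, Map2 had by far the most RNA. MAP2 is best known as a microtubule protein of dendrites, but oligodendrocyte precursors and immature astrocytes make short forms of it, and the deposited level does not separate the forms. Its level was 80.7 FPKM in LD-high glia and 161 FPKM in LD-low glia. The log2 change was -0.996 (q = 0.00640 in the authors' deposited table), and its rank among the lower genes was 409 of 528. Map2 (ENSRNOG00000011841) lies on chromosome 9, 73319710 to 73462972, in rn6.

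Map9 encodes a microtubule protein of the mitotic spindle. Its level was 9.42 FPKM in LD-high glia and 17.6 FPKM in LD-low glia, with a log2 change of -0.90 (q = 0.0158 in the authors' deposited table). Map1s encodes a small member of the MAP1 family that is found in many tissues. Its level was 2.17 FPKM in LD-high glia and 5.98 FPKM in LD-low glia, with a log2 change of -1.46 (q = 0.0147 in the authors' deposited table). These 2 genes had the highest q of the 9. At q below 0.01 the authors' table holds 7 of the 9 genes, without this pair, and 1.98% of all tested genes as lower. Map9 (ENSRNOG00000012982) lies on chromosome 2, 181331464 to 181367244, and Map1s (ENSRNOG00000018781) on chromosome 16, 20267581 to 20278814, both in rn6.

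The order of the levels changed between the groups. In LD-high glia it ran Map2, Stmn2, Map9, Dcx, Map1s, Tubb3, Mapt, Ina and Nefl. In LD-low glia it ran Map2, Stmn2, Dcx, Tubb3, Ina, Mapt, Map9, Map1s and Nefl. Map2 and Stmn2 led in both, while Map9 and Map1s passed Tubb3, Ina and Mapt in LD-high glia, and Map9 passed Dcx as well. With no spread between samples it cannot be said which neighbours in either order differ.

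A ratio of 2 genes within a group does not depend on how the groups were scaled. Relative to Map2, Dcx stood at 0.0419 in LD-high glia and 0.619 in LD-low glia, and Mapt at 0.0125 in LD-high glia and 0.140 in LD-low glia. Stmn2 stood at 0.316 of Map2 in LD-high glia and 0.632 in LD-low glia. For Map9 the ratio to Map2 was 0.117 in LD-high glia and 0.109 in LD-low glia, so these 2 genes kept nearly the same proportion. The summed level of the 9 genes was 125 FPKM in LD-high glia and 470 FPKM in LD-low glia. Map2 made up 64.6% of that sum in LD-high glia and 34.3% in LD-low glia. Dcx made up 2.71% in LD-high glia and 21.2% in LD-low glia, whereas the share of Stmn2 was 20.4% in LD-high glia and 21.7% in LD-low glia.

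**Figure D2:**
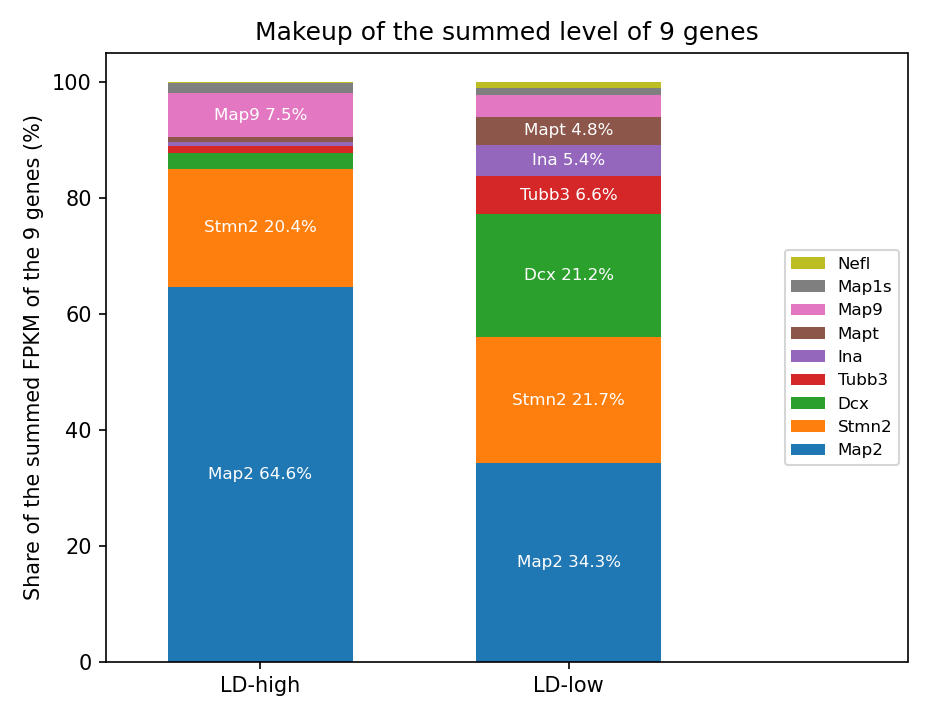
Share of each gene in the summed FPKM of the 9 genes, in percent, for LD-high glia (left bar) and LD-low glia (right bar). The Map2 segment takes 64.6% of the LD-high bar and 34.3% of the LD-low bar, the Dcx segment 2.71% and 21.2%, and the Stmn2 segments are of like height.

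Genes of like level differed in size of change. Map2, Stmn2 and Dcx, the 3 with the highest LD-low levels, had log2 changes of -0.996, -1.99 and -4.88. By LD-low level they ranked 13, 24 and 25 among all 548 lower genes. In LD-high glia, Map2 ranked 11 and Stmn2 ranked 36 among the same genes, but Dcx ranked 303. The called genes outside the lists that were nearest to Dcx in both levels (distance on the log2 scale over the 2 groups) were Prox1, Gng2 and a gene with a clone name. Their distances were 0.642, 1.40 and 1.73, so the last 2 were only loosely alike. Prox1, a transcription factor of dentate granule neurons among other cells, had 3.90 FPKM in LD-high glia and 65.4 FPKM in LD-low glia in the authors' deposited table. Gng2, a G protein subunit, had 8.03 FPKM in LD-high glia and 63.9 FPKM in LD-low glia there. Nearest to Map2 were Nacc2, Ywhag and Ptms, at the smaller distances of 0.184, 0.247 and 0.251. Nacc2, a transcriptional regulator, had 71.3 FPKM in LD-high glia and 156 FPKM in LD-low glia in the authors' deposited table. Ywhag, a 14-3-3 protein, had 79.6 FPKM in LD-high glia and 136 FPKM in LD-low glia there.

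**Figure D3:**
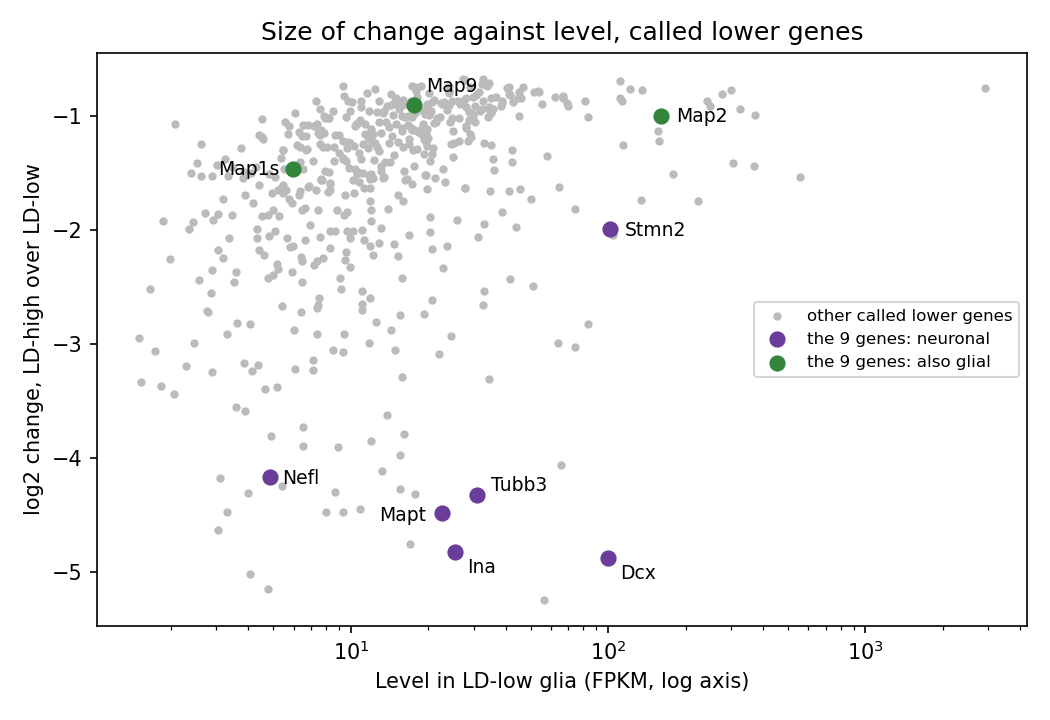
Log2 change, LD-high over LD-low, against the LD-low level on a log axis of FPKM, for the 528 called lower genes above 0 in both groups (grey), the 6 neuronal genes (purple) and the 3 genes also made by glia (green). Dcx (-4.88), Stmn2 (-1.99) and Map2 (-0.996) have high LD-low levels and very different changes, and the other neuronal genes lie below -4.

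Lists of related genes, written with earlier results of these data known, are given by their counts. Of 27 other microtubule proteins enriched in neurons, 9 were called lower (33.3%) and 0 higher, beside 4.22% of all tested genes called lower. Their median log2 change was -1.53, close to that of all lower genes. The steepest was Stmn4, a stathmin of neurons, with 3.47 FPKM in LD-high glia and 34.3 FPKM in LD-low glia (log2 change -3.30 and q = 0.00187 in the authors' deposited table). Its relative Stmn2 was 7.36 times as high as Stmn4 in LD-high glia and 2.97 times in LD-low glia. Tubb4a, a tubulin of neurons and oligodendrocytes, had 9.02 FPKM in LD-high glia and 50.9 FPKM in LD-low glia (log2 change -2.50 and q = 0.00187 in the authors' deposited table).

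The collapsin response mediators, which link axon guidance signals to microtubules, spread widely. Crmp1 had 7.69 FPKM in LD-high glia and 41.5 FPKM in LD-low glia (log2 change -2.43), and Dpysl4 had 0.801 FPKM in LD-high glia and 3.36 FPKM in LD-low glia (log2 change -2.07) in the authors' deposited table. Dpysl5 (log2 change -1.40) and Dpysl3 (-0.76) fell less there. Dclk2, a kinase with the tubulin-binding domains of doublecortin, had 170 FPKM in LD-high glia and 326 FPKM in LD-low glia (log2 change -0.94 and q = 0.0203 in the authors' deposited table). Dcx was 0.0199 times as high as Dclk2 in LD-high glia and 0.306 times in LD-low glia, so this pair of related genes changed very unequally. The tau kinase gene Ttbk1 (log2 change -1.53) and Jakmip2 (-1.50) completed the 9 in that table. Map1a, Map1b, Map6, Stmn3, Dclk1, Tubb2a and Tubb2b, all abundant in neurons, were not among the called genes, which means that they either missed the authors' threshold or were not tested.

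Of 35 microtubule proteins of cells in general, 2 were called (5.71%), both lower, a share near that of all tested genes. They were Clip2 (3.27 FPKM in LD-high glia and 8.58 FPKM in LD-low glia) and the kinase gene Mark2 (14.8 FPKM in LD-high glia and 28.0 FPKM in LD-low glia) in the authors' deposited table. Tuba1a, Tuba1b, Tubb5, Map4 and Stmn1 were not among the called genes. Of 24 genes of cilia 1 was called lower (4.17%), also a share near that of all tested genes. It was the dynein gene Dnah9 (0.981 FPKM in LD-high glia and 2.06 FPKM in LD-low glia in the authors' deposited table). None of 11 intermediate filament genes of glia and other cells was called, Gfap, Vim and Nes among them, and neither was Nefm, Nefh or Prph, the 3 other neuronal filament genes. Of all tested genes 4.22% were called lower and 4.92% higher, so lists this short could well hold no call. Genes not called either missed the authors' threshold or were not tested. The called filament genes in these sets were Nefl and Ina, which were chosen with their calls known.

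The skeleton under the axonal membrane had 4 of 10 genes called, 4 lower (40%) and 0 higher, beside 4.22% of all tested genes called lower. Ank3, the ankyrin of the axon initial segment, had 5.00 FPKM in LD-high glia and 20.3 FPKM in LD-low glia (log2 change -2.02 and q = 0.00187 in the authors' deposited table). Ank2 (-1.63), Nfasc (-1.51) and the growth cone gene Gap43 (-0.84) also fell in the authors' deposited table. Gap43, often used as a sign of growing axons, still had 62.1 FPKM in LD-high glia, against 111 FPKM in LD-low glia.

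**Figure D4:**
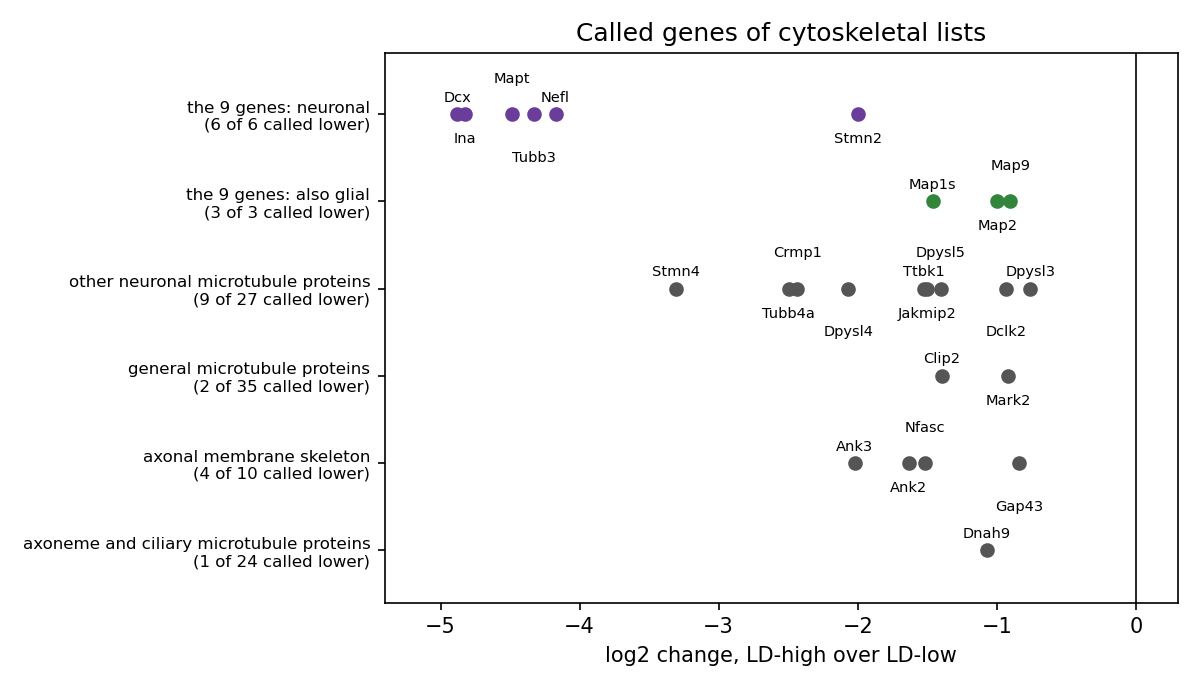
Log2 change, LD-high over LD-low, of each called gene in the 2 sets of the 9 genes and in 4 lists of related genes, with the number called lower of the number of symbols beside each name. The 2 lists of other intermediate filaments had no called gene and are not drawn, and the other neuronal microtubule genes spread from -3.30 to -0.76.

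Neuron markers outside the cytoskeleton spread as widely. Of 22 markers 7 were called, all 7 lower (31.8%), beside 4.22% of all tested genes called lower. Their log2 changes ran from -5.25 to -0.91 with a median of -3.02. Neurod1, a factor of neuronal differentiation, kept 2.64% of its LD-low level, Chgb of secretory granules 3.69% and Syt1 of synaptic vesicles 8.11%, computed from the authors' deposited levels. The values of Dcx, Ina, Mapt, Tubb3 and Nefl lie within this range, as does that of Stmn2. The other 15 markers were not among the called genes, both genes of mature neurons such as Rbfox3 and Syn1 and genes of young neurons such as Neurod2 and Elavl2.

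Markers of other cells were also called in the same comparison. The sums below cover called markers only, so their direction follows from the calls. Levels of the markers that were not called are not known here. Of 18 astrocyte markers 4 were called, all 4 higher, with a summed level of 2846 FPKM in LD-high glia and 1637 FPKM in LD-low glia, nearly all of it Fabp7. Of 17 microglia markers 11 were called, all 11 higher, and their summed level was 518 FPKM in LD-high glia and 50.7 FPKM in LD-low glia. Of 10 fibroblast and mural markers 4 were called, all 4 higher (218 FPKM in LD-high glia and 71.2 FPKM in LD-low glia). Of 11 endothelial markers 3 were called, all 3 higher (41.0 FPKM in LD-high glia and 13.0 FPKM in LD-low glia). The authors called 4.92% of all tested genes higher. No called marker of these lists was listed at 0 in either group. The part of the cell makeup in the fall of the 9 genes was not tested.

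The authors' deposited lists of enriched terms do not name the microtubule. Of 104 terms for the lower genes, 0 held the words microtubule, tubulin, intermediate filament or spindle, and 9 held axon or neuron projection. Among them the authors' deposited list gives neuron projection morphogenesis a p of 3.71e-12 and axonogenesis a p of 2.41e-09. Of 229 terms for the higher genes, 3 concerned the cytoskeleton or actin filaments. The lowest p of these in the authors' deposited list, 0.000986, belongs to actin filament-based process. These p-values are the authors', adjusted for the number of terms, and the deposited lists do not give the genes behind a term.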

How the data were processed

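Per the labels' protocols, a kit made for few cells was used to extract RNA, and cDNA was amplified before the libraries were built. Reads were handled with Bowtie2 and Cuffdiff on rn6, per the submitters' processing notes, while annotation, strand setting and filters are not given there. The authors' deposited gene tables used here list only called genes, with 1 level per group (read as FPKM), and beside these levels the log2 fold change, p-value and q-value of each gene, per the file headers. The number of columns with values of single samples is 0. The authors' deposited term lists hold 1 p-value per term.

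Log2 changes were computed from the levels and lay within 1.15e-05 of the log2 values that the authors deposited. The number of tests, 12981, was recovered from p, q and rank, a step tested on simulated data. Starts were raised by 1, since Cuffdiff counts from 0. The 9 genes and the 14 gene lists were chosen with earlier results of these data known. Named were the 9 genes, called genes of the 6 cytoskeletal lists, up to 3 called markers per cell type by size of change, and the 3 called genes nearest to Dcx and to Map2. A few further list members are named to show what was not called, chosen after the calls were seen. No test was run, since no values of single samples were used. Alternatives were pseudocounts of 0.1 and 1, the deposited log2, a q threshold of 0.01, a minimum log2 change of 1, a minimum of 1 FPKM, sums in place of Map2 and other class borders. A few genes that the lists would take are not reported here. A planned comparison of protein sequences was not made. Python 3.11.15 with pandas 2.3.3 was used.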

Additional observations from a re-analysis of the deposited data

How the results depend on the processing

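With a pseudocount of 1 the log2 changes of the 9 genes ran from -4.52 to -0.84. Adding the same amount to both levels cannot change a direction, so only the size of these changes is informative. The difference of medians between the 2 sets kept its sign. Since the sets were drawn with these changes known and lay far apart, this is not a test of the difference. Nefl moved most of the 6 neuronal genes, to -2.20, close to Stmn2 at -1.95. The median over the 6 neuronal genes was -4.30 with a pseudocount of 0.1 and -3.60 with 1, and over the 3 genes also made by glia it was -0.987 with 1. The difference of these medians was -3.30 and -2.61 with pseudocounts of 0.1 and 1. It was -3.04 with Mapt and Tubb3 counted as also made by glia, a border at which the sets overlapped. Without Stmn2, a choice made after seeing the data, the difference was -3.49. At q below 0.01, 7 of the 9 genes remained, without Map1s and Map9, and with a log2 change of at least 1 in size 7 remained, without Map2 and Map9. Over the 6 cytoskeletal lists 7 of 16 called genes remained at q below 0.01, and over all lower genes 257 of 548 (1.98% of tested genes). As shares of the summed level in place of ratios to Map2, the relative levels are those of the plot of shares. No paired analysis was possible because the deposited columns hold no values of single samples, and for the same reason samples could not be left out in turn and the effect of depth could not be assessed.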
